A study of Homo sapiens with 12 samples.

Results

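The 42 genes described here act in the G2 phase of the cell cycle and in mitosis. They were chosen by symbol and function, as regulators of mitotic entry, kinetochore and spindle genes, with earlier results of these data known. Each of the 42 symbols was found among the 43735 genes of the count table. All 42 were among the 14085 genes with enough reads for testing. RNA sequencing was performed on 12 cultures of the multiple myeloma (MM) cell lines MM1S and MM1R, which were established from the same patient and differ in their response to glucocorticoids (GCs). MM1S cells are GC-sensitive and MM1R cells GC-resistant. Each line was either left untreated (UT) or exposed to withaferin A (WA) at 1 µM for 3 h, with 3 cultures in each of the 4 groups. WA is a steroidal lactone of the plant Withania somnifera that reacts with cysteine thiols in proteins. The labels name no vehicle for the untreated cells.

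Cultures of a group differed in passage number, which was 4, 6 and 7 in MM1R and 16, 22 and 23 in MM1S. Each passage of a line was represented by 1 UT and 1 WA culture, whereas the lines had no passage number in common, so that cell line and passage number cannot be told apart. The methods describe the sequenced replicates as independent samples. Gene counts summed to between 17625110 and 19368343 reads in a culture. The plasma cell markers fixed for the check (9 of 9, among them SDC1, XBP1 and IRF4) were all detected, with a summed level of 4930 to 6730 CPM (read counts scaled to a common library total) per culture. Of the mature B cell markers, MS4A1, PAX5 and CD22 had at most 3 reads in any culture, while CR2 had 516 to 842. Levels below are CPM with library totals adjusted by the trimmed mean of M-values (TMM).

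Genes of this class are transcribed late in the cell cycle, so that their RNA is highest in cells in G2 and mitosis and low in G1. Their promoters are held silent in resting and early-cycle cells by the DREAM complex, which sits on a sequence called the cell cycle genes homology region (CHR). The MuvB core of that complex later joins B-MYB and FOXM1 to activate the same genes, and many of the promoters also carry CCAAT boxes bound by NF-Y. The p53 target CDKN1A (p21) inhibits cyclin-dependent kinases and thereby favours the silent state. In multiple myeloma, the summed level of such genes is a common measure of how fast the tumour proliferates. RNA from whole cultures was measured, so that fewer cells in G2 or mitosis and less RNA per cell cannot be told apart.

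RefSeq promoter windows on GRCh38.p14, from 250 bases before to 50 bases after the annotated start, were available for 37 of the 42 genes (not for AURKA, TPX2, TTK, BIRC5 and UBE2C). The CHR letters TTTGAA or TTCGAA, read on both strands, occurred in 26 of these 37 windows (70.3%), against 11.5% of 10402 windows of tested genes and 16.6% of all 27303 windows. CCAAT, also read on both strands, occurred in 27 of 37 windows (73.0%), against 36.7% and 35.7%. In 15 of the genes a CHR match began within 40 bases before the start. The 250 bases before the start are printed for ANLN (chr7:36389612-36389861, plus strand), HMMR (chr5:163460382-163460631, plus strand), CKS2 (chr9:89310945-89311194, plus strand) and PLK1 (chr16:23678639-23678888, plus strand), because these genes differ in what happened to their RNA under WA. Capitals mark the CHR letters (TTTGAA, or TTCAAA where read from the other strand) and CCAAT (or ATTGG).
ANLN: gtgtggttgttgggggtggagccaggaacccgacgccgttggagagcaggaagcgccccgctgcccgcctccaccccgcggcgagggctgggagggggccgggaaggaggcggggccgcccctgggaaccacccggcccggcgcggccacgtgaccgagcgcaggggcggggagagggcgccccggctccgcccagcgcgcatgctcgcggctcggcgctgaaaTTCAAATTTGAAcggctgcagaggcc
HMMR: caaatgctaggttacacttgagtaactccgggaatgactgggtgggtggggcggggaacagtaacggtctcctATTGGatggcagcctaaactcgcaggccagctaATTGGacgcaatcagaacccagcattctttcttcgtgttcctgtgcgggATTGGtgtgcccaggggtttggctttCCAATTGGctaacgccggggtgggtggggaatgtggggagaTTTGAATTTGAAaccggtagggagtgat
CKS2: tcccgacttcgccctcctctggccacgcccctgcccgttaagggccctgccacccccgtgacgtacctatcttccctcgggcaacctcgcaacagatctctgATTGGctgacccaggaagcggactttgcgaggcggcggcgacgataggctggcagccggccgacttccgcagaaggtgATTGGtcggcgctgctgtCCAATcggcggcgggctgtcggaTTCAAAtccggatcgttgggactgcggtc
PLK1: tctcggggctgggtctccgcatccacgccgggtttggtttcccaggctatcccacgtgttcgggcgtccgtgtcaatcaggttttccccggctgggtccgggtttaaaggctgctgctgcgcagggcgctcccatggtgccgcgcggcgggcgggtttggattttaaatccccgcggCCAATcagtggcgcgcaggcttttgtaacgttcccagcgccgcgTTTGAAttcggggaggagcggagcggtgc
All 4 stretches hold CHR letters close to the start. They begin 26 and 20 bases before it in ANLN, 28 and 22 bases in HMMR, 29 bases in CKS2 and 29 bases in PLK1. CCAAT letters were counted once before PLK1, 3 times before CKS2 and 5 times before HMMR, and not at all in the ANLN window. HMMR and PLK1 both have a CHR match at nearly the same distance from the start. These genes were picked because their RNA changes, described below, differ, and any part of the match in those changes was not tested. Such matches are letters in a window and were not tested as binding sites.

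Few of the 42 genes passed for WA when cultures were compared without regard to passage, and more passed with passage as a block, as given below. The clearest change was a rise of ANLN. In MM1R, 3 genes passed an adjusted p of 0.05 in the quasi-likelihood test of edgeR (Benjamini-Hochberg adjustment over all genes tested), namely ANLN and HMMR (higher) and PLK1 (lower). Of all 14085 genes tested, 14% passed in the same comparison, 7.55% higher and 6.46% lower. In MM1S, only ANLN and HMMR passed, both higher, against 10.5% of all genes (6.25% higher and 4.23% lower). These counts were 7.14% and 4.76% of the 42 genes, below the share of all genes in both lines. The number passing in MM1R was 1 when UT passage 6 or WA passage 7 was left out and 6 without UT passage 4 or without the MM1S WA culture of passage 16. The count in MM1S was 1 without the MM1R UT culture of passage 6, the MM1S UT culture of passage 22 or 23, or the MM1S WA culture of passage 23.

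The UT and WA cultures of 1 passage deviated from their group means together, and when passage number was entered as a block the number of genes passing the same threshold was 22 in MM1R (5 higher and 17 lower) and 11 in MM1S (4 higher and 7 lower). In MM1R this was 52.4% of the 42 genes, against 29.1% of all genes (14.7% higher and 14.4% lower). The share in MM1S was 26.2%, against 24.1% of all genes (12.5% higher and 11.7% lower). In the fit without the block, the median of the 42 log2 fold changes was -0.20 in MM1R, with 33 genes below 0, and -0.08 in MM1S, with 28 below 0. The median over all genes was 0.01 in each line, with 48.6% of all genes below 0 in MM1R and 48.1% in MM1S. Single cultures moved the median of the 42 in MM1R, to -0.33 without the UT culture of passage 4, -0.09 without that of passage 7 and -0.09 without the WA culture of passage 4. In MM1S it was -0.20, -0.05 and 0.01 without the UT culture of passage 16, 22 or 23, and 0.05, -0.15 and -0.19 without the WA culture of passage 16, 22 or 23, so that its sign was not kept. With 1 passage pair of MM1R left out, the count with the block was 14 without passage 4, 14 without passage 6 and 11 without passage 7. The count in MM1S was 6 without passage 16, 10 without passage 22 and 6 without passage 23. The share of all genes was not counted in fits with a culture or pair left out. The genes are described below by role, from these 2 fits, without and with the block.

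**Figure D1:**
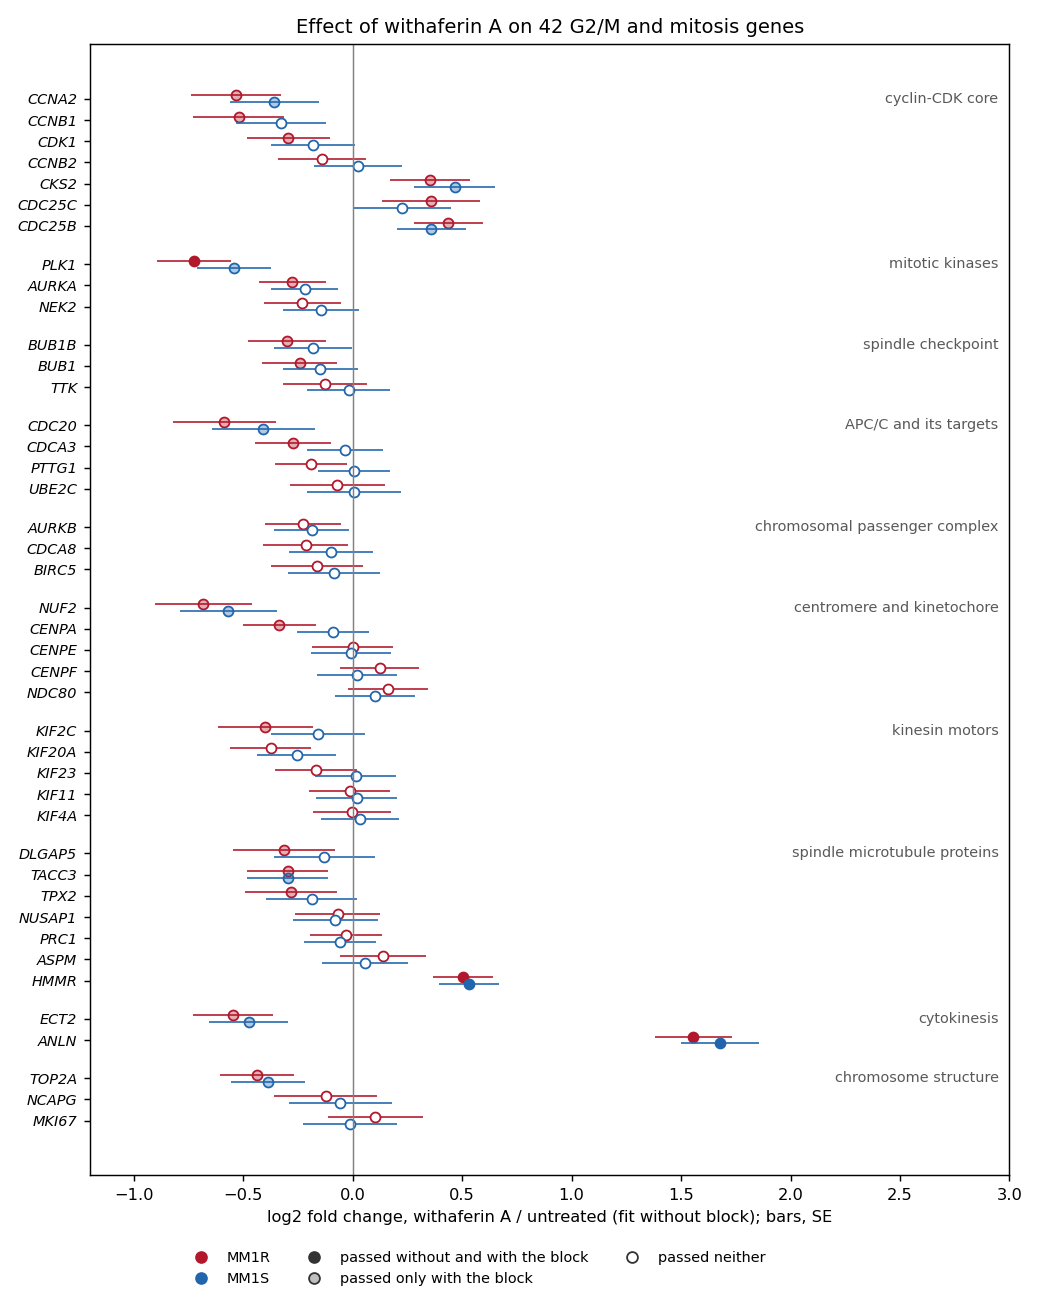
Log2 fold change of WA over UT (horizontal axis) for each of the 42 genes (vertical axis), grouped by role, in MM1R (red) and MM1S (blue), with bars for the standard error of the fit without the block. Filled points passed an adjusted p of 0.05 with and without the block, shaded points only with the block and open points in neither, and ANLN stands apart at 1.56 and 1.68 while the other 41 genes lie between -0.72 and 0.53.

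Of the cytokinesis genes, ANLN rose in both lines and ECT2 fell in both when passage was taken into account. ANLN encodes anillin, the scaffold that links actin, myosin and septins at the contractile ring. In the UT cultures of MM1R, ANLN was at 41.8, 52.8 and 41.4 CPM (passages 4, 6 and 7), and in the WA cultures at 104, 132 and 164. In MM1S it was at 54.3, 59.2 and 64.1 CPM in UT cultures (passages 16, 22 and 23) and at 159.5, 179 and 230.2 with WA. Every WA culture was well above every UT culture of its line. By edgeR, ANLN rose on the log2 scale by 1.56 ± 0.18 (SE), adjusted p = 0.00011, in MM1R and 1.68 ± 0.18 (SE), adjusted p = 5.7e-05, in MM1S, a 2.94-fold and a 3.20-fold increase. ANLN passed in all 21 alternative analyses in each line. The gene lies on the plus strand of chromosome 7 (36429430 to 36493400 on GRCh37, 24 exons). Its first 305 bases overlap MATCAP2 on the opposite strand, which had 30 to 257 reads per culture under its older symbol KIAA0895.

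ECT2, the exchange factor that activates RhoA at the cell equator to start ring assembly, was at 70.0, 80.0 and 74.4 CPM in UT and 47.5, 59.0 and 47.2 in WA cultures of MM1R, and the groups did not overlap. UT cultures of MM1S had 80.8, 94.4 and 112 CPM and WA cultures 49.2, 87.8 and 69.2, and these groups did overlap. The log2 fold change by edgeR was -0.55 ± 0.18 (SE), adjusted p = 0.061, in MM1R and -0.48 ± 0.18 (SE), adjusted p = 0.11, in MM1S without the block. With the block ECT2 fell in both lines (adjusted p = 0.004 and 0.008 by edgeR), by 0.55 and 0.50 on the log2 scale. All 6 passage pairs were lower with WA, from -0.10 in passage 22 to -0.71 in passage 16.

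**Figure D2:**
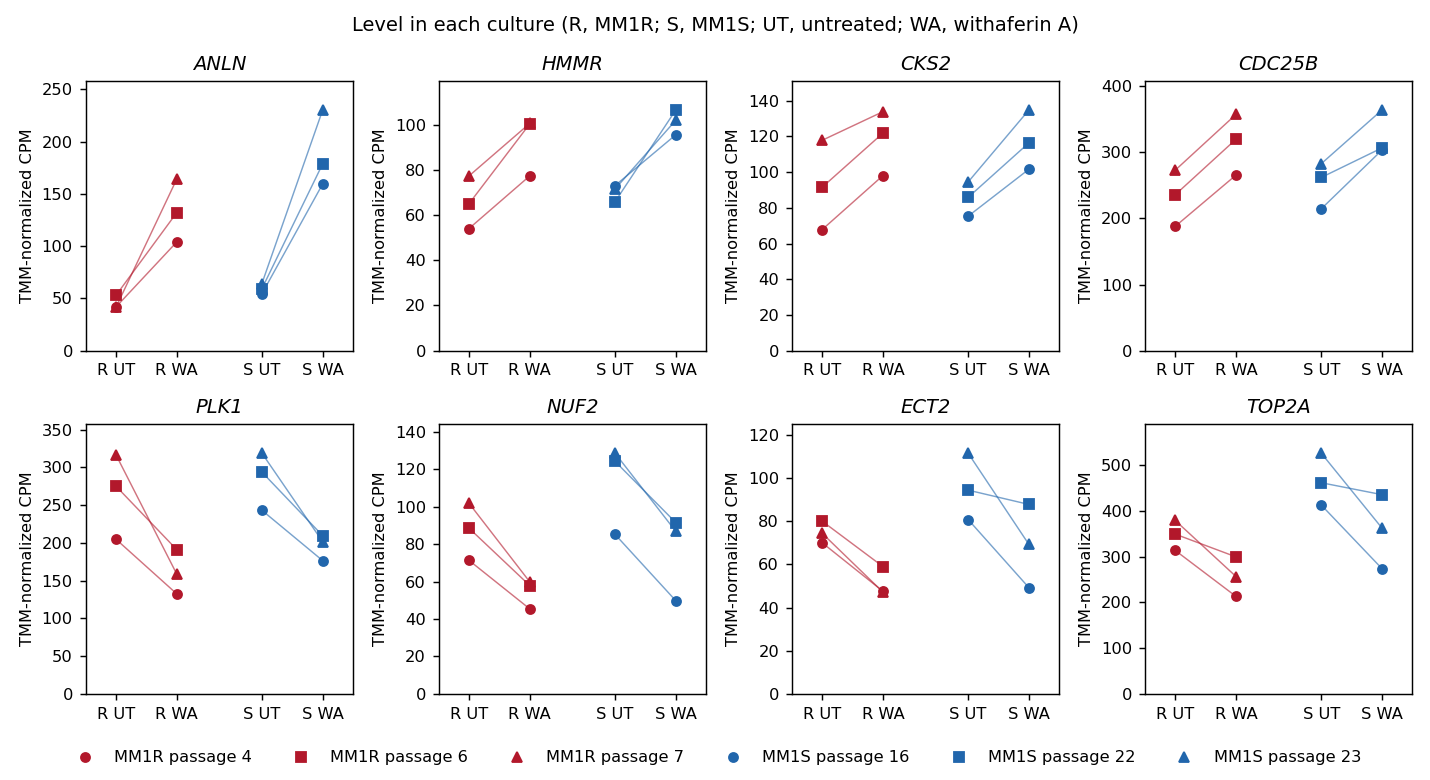
TMM-scaled CPM (vertical axes) of 8 genes in every culture, by line and treatment (horizontal axes), with lines joining the UT and WA cultures of the same passage. ANLN, HMMR, CKS2 and CDC25B are higher with WA in all 6 pairs, and PLK1, NUF2, ECT2 and TOP2A are lower in all 6.

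Among the spindle microtubule proteins, HMMR rose and the other 6 genes lay between -0.32 and 0.14 on the log2 scale in MM1R and between -0.30 and 0.06 in MM1S. HMMR encodes the hyaluronan-mediated motility receptor RHAMM, which in mitosis sits on centrosomes and spindle microtubules and positions the spindle. HMMR was at 54.0, 65.0 and 77.3 CPM in UT and 77.3, 100.4 and 101 in WA cultures of MM1R, where the highest UT and the lowest WA culture were level. The level in MM1S was 73.0, 65.9 and 71.5 CPM in UT and 95.5, 106 and 102 in WA cultures, with a clear gap. By edgeR the change was 0.50 ± 0.14 (SE), adjusted p = 0.026, in MM1R and 0.53 ± 0.14 (SE), adjusted p = 0.026, in MM1S, or 1.42-fold and 1.44-fold. The call was lost in 5 of 21 alternatives in MM1R and 6 of 21 in MM1S, with adjusted p up to 0.10 and 0.11. HMMR has 18 exons on chromosome 5 (162887209 to 162918947 on GRCh37), and its antisense transcript HMMR-AS1 had 0 to 9 reads in any culture.

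TACC3, which stabilises bundles of kinetochore microtubules, fell in both lines with the block (log2 fold change -0.30 in MM1R and -0.30 in MM1S, adjusted p = 0.023 and 0.024 by edgeR). The gene overlaps TMEM129 on the opposite strand, which had 1566 to 2608 reads, and the strand setting of the counting is not given in the sources used here. TPX2, the activator of Aurora A on spindle microtubules, and DLGAP5, a stabiliser of kinetochore fibres, fell in MM1R with the block (-0.28, adjusted p = 0.017, and -0.32, adjusted p = 0.04, by edgeR). NUSAP1, PRC1 and ASPM passed in neither line, with or without the block.

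PLK1, the Polo-like kinase that drives mitotic entry, centrosome maturation and cytokinesis, was at 205, 275 and 317 CPM in UT and 133, 191 and 159 in WA cultures of MM1R. Values in MM1S were 243, 294 and 319 CPM in UT and 176, 209 and 201 in WA cultures. UT and WA cultures did not overlap in either line. The log2 fold change by edgeR was -0.72 ± 0.17 (SE), adjusted p = 0.012, in MM1R, a level 1.65-fold lower, and -0.54 ± 0.17 (SE), adjusted p = 0.057, in MM1S, which passed with the block (adjusted p = 0.0017 by edgeR). PLK1 passed in MM1R without the block except when 1 of 4 cultures was left out, with adjusted p up to 0.06. Its gene has 10 exons on chromosome 16 (23688977 to 23701688 on GRCh37).

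AURKA, the centrosomal kinase Aurora A, was at 72.7, 92.1 and 102 CPM in UT and 62.5, 82.6 and 75.4 in WA cultures of MM1R. In MM1S it was at 77.2, 104 and 103 CPM in UT and 76.1, 86.8 and 81.2 in WA cultures. The groups overlapped in both lines, and AURKA fell only in MM1R and only with the block (-0.27 ± 0.09 (SE), adjusted p = 0.045, by edgeR). NEK2, a kinase of centrosome separation, was lower with WA in all 6 pairs but passed in neither line, with log2 fold changes of -0.23 and -0.14.

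The cyclin-CDK group held genes on both sides. CDK1, the kinase that drives cells into mitosis, was at 140.2, 181 and 209.9 CPM in UT and 127, 157 and 149 in WA cultures of MM1R. UT cultures of MM1S had 158, 218 and 239 CPM and WA cultures 139, 213 and 190.1. Each WA culture was below the UT culture of the same passage, by 0.03 to 0.49 on the log2 scale. CCNB1, its cyclin B1 partner, was at 107, 136 and 192 CPM in UT and 91.5, 117 and 94.7 in WA cultures of MM1R. The level in MM1S was 143, 175 and 201 CPM in UT and 108, 163 and 143 in WA cultures. The largest drop of CCNB1 within a pair, -1.02, was in passage 7 of MM1R, where the UT culture was the highest of its group.

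With the block, CDK1 (-0.28), CCNB1 (-0.49) and CCNA2 (-0.51), which encodes cyclin A2, fell in MM1R (adjusted p = 0.035, 0.02 and 0.0038 by edgeR). In MM1S only CCNA2 fell (-0.36, adjusted p = 0.026 by edgeR). CCNB2, the second B-type cyclin, was higher in 3 pairs and lower in 3. Part of CCNA2 overlaps EXOSC9 on the opposite strand (596 to 1344 reads).

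The other 3 genes of this group were higher with WA in all 6 pairs. CKS2, a small subunit that binds CDK1, was at 67.8, 91.5 and 118 CPM in UT and 98.0, 122 and 134 in WA cultures of MM1R. Values in MM1S were 75.3, 85.8 and 94.4 CPM in UT and 102, 116 and 135 in WA cultures. The groups overlapped in MM1R and not in MM1S. CDC25B, the phosphatase that starts the activation of CDK1, was at 188, 236 and 273 CPM in UT and 265, 319.6 and 357 in WA cultures of MM1R. In MM1S it was at 214, 262 and 282 CPM in UT and 303, 306 and 364 in WA cultures. Its groups, too, overlapped in MM1R and not in MM1S.

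Without the block neither gene passed, with edgeR log2 fold changes of 0.35 and 0.47 for CKS2 (adjusted p = 0.23 and 0.13) and 0.44 and 0.36 for CDC25B (adjusted p = 0.079 and 0.17). With the block both rose in MM1R (adjusted p = 0.0065 for CKS2 and 0.0014 for CDC25B by edgeR) and in MM1S (adjusted p = 0.0025 and 0.0052). CDC25C, the phosphatase that keeps CDK1 active, had 12.7, 15.6 and 20.2 CPM in UT and 15.6, 19.5 and 26.9 in WA cultures of MM1R and rose there with the block (0.35, adjusted p = 0.031 by edgeR). In MM1S its change was 0.23 and did not pass. CDC25C (137620958 to 137674044 on GRCh37) overlaps FAM53C on the opposite strand (1814 to 3774 reads) over 6421 bases. Without strand, reads within that stretch cannot be told apart.

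Of the 5 centromere and kinetochore genes, NUF2 was the only one lower in all 6 pairs. NUF2 is a subunit of the NDC80 complex, which ties kinetochores to microtubules. It was at 71.3, 88.5 and 102 CPM in UT and 45.3, 57.8 and 59.7 in WA cultures of MM1R, without overlap. UT cultures of MM1S had 85.2, 124 and 129 CPM and WA cultures 49.7, 91.4 and 86.7, with overlap, as the UT culture of passage 16 lay below 2 of the WA cultures. The edgeR log2 fold change was -0.68 ± 0.22 (SE), adjusted p = 0.056, in MM1R and -0.57 ± 0.22 (SE), adjusted p = 0.12, in MM1S, and NUF2 fell in both with the block (adjusted p = 0.00021 and 0.00056). RGS5, which overlaps NUF2 on the opposite strand, had 65 to 120 reads.

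NDC80, the namesake subunit of the same complex, was higher in all 6 pairs by 0.02 to 0.29 and did not pass with or without the block. CENPA, the histone H3 variant of centromeres, fell in MM1R with the block (-0.32 ± 0.11 (SE), adjusted p = 0.048, by edgeR). The gene overlaps SLC35F6 on the same strand (812 to 1115 reads). CENPE, a kinetochore motor, and CENPF, a kinetochore and nuclear matrix protein, were higher in 3 pairs and lower in 3 pairs each.

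Among the genes of the anaphase-promoting complex and its targets, CDC20, the activator that starts anaphase, fell in both lines with the block (log2 fold change -0.55 and -0.40, adjusted p = 0.00071 and 0.0059 by edgeR). CDC20 was at 105, 159 and 216 CPM in UT and 79.9, 112 and 128 in WA cultures of MM1R. The level in MM1S was 124, 150.3 and 184 CPM in UT and 99.2, 115 and 131 in WA cultures. The groups overlapped in both lines, although each pair was lower by at least 0.32 on the log2 scale. CDCA3, a trigger of mitotic entry, fell in MM1R with the block (-0.27, adjusted p = 0.024 by edgeR), and PTTG1 (securin) and UBE2C, the E2 enzyme of the complex, did not pass with or without the block. The near-copies PTTG2 and PTTG3P had at most 4 reads in any culture.

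The spindle checkpoint kinases BUB1 and BUB1B fell in MM1R with the block (-0.25 and -0.31, adjusted p = 0.044 and 0.022 by edgeR), and TTK, the kinase at the top of the checkpoint, did not pass with or without the block. The chromosomal passenger genes AURKB, BIRC5 (survivin) and CDCA8 (borealin) had log2 fold changes from -0.23 to -0.16 in MM1R and from -0.19 to -0.08 in MM1S, and none passed. Of the 5 kinesin motors only KIF2C, which depolymerises microtubules at centromeres, passed, and only in MM1R with the block (-0.39, adjusted p = 0.0051 by edgeR). KIF20A was lower in all 6 pairs and did not pass, while KIF11, KIF23 and KIF4A were each higher in at least 2 pairs.

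TOP2A, the topoisomerase that untangles sister chromatids, was at 313, 349 and 379 CPM in UT and 213, 299 and 256 in WA cultures of MM1R, without overlap. Values in MM1S were 413, 462 and 526 CPM in UT and 274, 435 and 362 in WA cultures, with overlap. TOP2A fell with the block in both lines (-0.45 and -0.41, adjusted p = 0.0076 and 0.015 by edgeR). MKI67, which encodes the proliferation marker Ki-67, was at 695, 679 and 629 CPM in UT and 574, 813 and 766 in WA cultures of MM1R. In MM1S it was at 663, 819 and 957 CPM in UT and 504, 923 and 991 in WA cultures. Its direction differed between pairs, with 4 higher and 2 lower, the 2 lower ones being passages 4 and 16. The edgeR log2 fold change of MKI67 was 0.10 ± 0.22 (SE), adjusted p = 0.81, in MM1R and -0.01 ± 0.22 (SE), adjusted p = 0.98, in MM1S. NCAPG, a condensin subunit, did not pass with or without the block.

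Across both lines, 6 genes were higher with WA in all 6 pairs (ANLN, HMMR, CKS2, CDC25B, CDC25C and NDC80), which was 14.3% of the 42 against 20% of all genes tested. Lower in all 6 pairs were 16 genes (38.1%), against 20% of all genes tested. These were CCNA2, CCNB1, CDK1, PLK1, AURKA, NEK2, BUB1B, CDC20, AURKB, NUF2, KIF20A, KIF2C, TPX2, TACC3, ECT2 and TOP2A. CHR letters were found in 4 of the 6 promoter windows of the first set, in 7 of 14 of the second and in 15 of 17 of the remaining genes. In MM1R, WA and UT cultures did not overlap for 2 genes that were higher (17.3% of all genes) and 5 that were lower (16%), namely PLK1, BUB1B, TOP2A, ECT2 and NUF2. In MM1S they did not overlap for 4 that were higher (16.4%), namely ANLN, HMMR, CDC25B and CKS2, and for 1 that was lower (13.9%), PLK1. The median difference within a pair was -0.22, -0.07 and -0.28 in passages 4, 6 and 7 and -0.15, -0.01 and -0.12 in passages 16, 22 and 23, so that passages 6 and 22 had the smallest shift of their lines.

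The 42 genes also differed between the cultures of a group, most of them in the same direction. The median SD of log2 CPM within a group was 0.27 in UT and 0.26 in WA cultures of MM1R, and 0.24 and 0.30 in those of MM1S. Over all genes tested it was 0.19, 0.17, 0.15 and 0.20. Passage 4 was the lowest of its group for 36 of the 42 genes in UT and 39 in WA cultures, and passage 16 for 40 and 42. The UT culture of passage 7 was the highest for 35 genes and that of passage 23 for 38. The 42 genes together took 0.457% to 0.830% of the reads of a culture. In passages 4 and 16, the genes of the replication list described below were low as well, with a median deviation from the group of -0.24 and -0.18 in the UT and WA cultures of passage 4 and of -0.17 and -0.32 in those of passage 16.

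**Figure D3:**
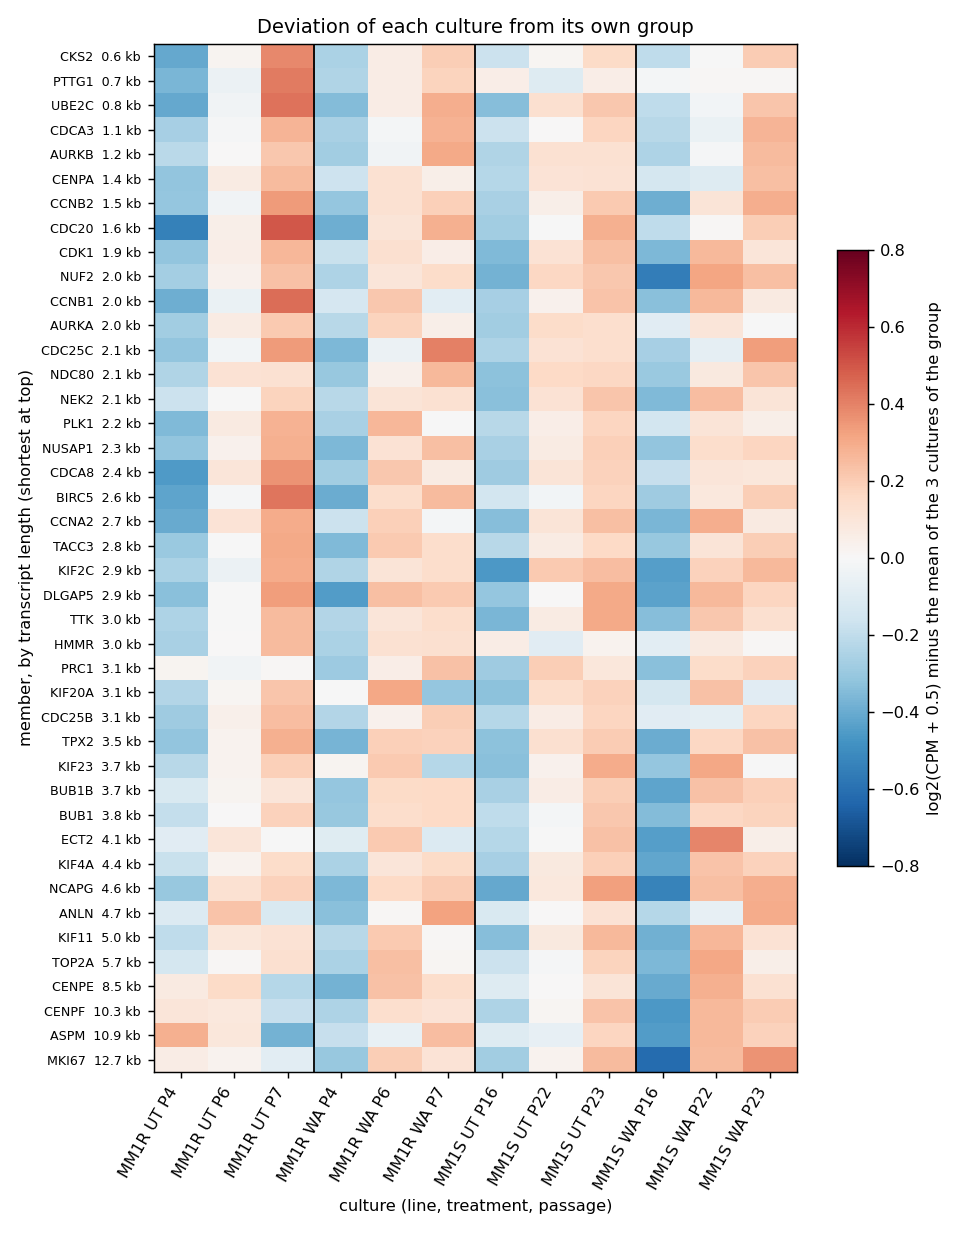
Deviation of each culture from the mean of its own group on the log2(CPM + 0.5) scale (colour, from blue at -0.8 to red at 0.8) for the 42 genes (vertical axis, ordered by transcript length in kilobases) in the 12 cultures (horizontal axis). The columns of passages 4 and 16 are blue for nearly all genes, except that the 4 longest genes are red in the UT culture of passage 4 and blue in that of passage 7.

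The deviations also went with transcript length in some libraries. In the UT cultures of MM1R, Spearman's correlation over the 42 genes between transcript length and deviation from the group was 0.71 in passage 4, 0.40 in passage 6 and -0.73 in passage 7, and over 12472 genes with a length it was 0.34, 0.12 and -0.39. In the WA cultures of MM1S it was -0.55 in passage 16 and 0.52 in passage 22 over the 42 genes, and -0.13 and 0.20 over all. Points in such a correlation share a library and are not independent. Of the 42, only MKI67 (12716 bases), ASPM (10863), CENPF (10290) and CENPE (8541) are longer than 8 kb, and the next, TOP2A, measures 5695. Within the passage 7 pair these 4 were higher with WA, by 0.29, 0.78, 0.41 and 0.35, whereas in passages 4 and 16 all 4 were lower. Differences between WA and UT correlated with length at 0.26 in MM1R and 0.15 in MM1S over the 42 genes, and at 0.07 and 0.08 over all genes. The part of length in the results was not tested.

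**Figure D4:**
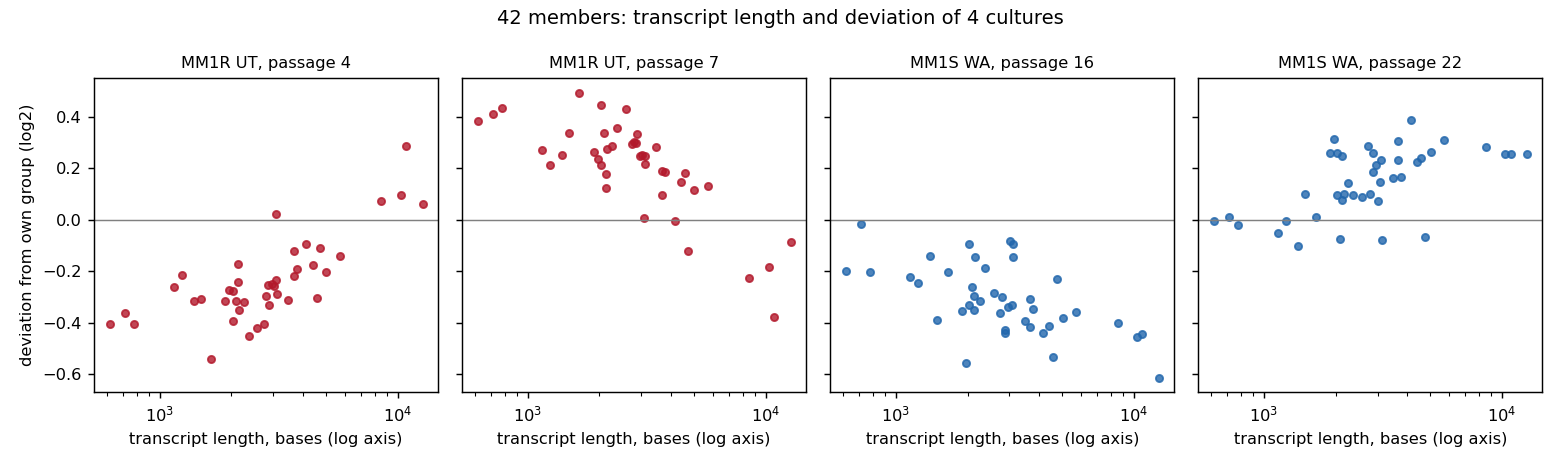
Deviation from the own group (vertical axes, log2) against transcript length in bases (horizontal log axes) for the 42 genes in the 4 cultures with the strongest relation. Long transcripts lie above the short ones in UT passage 4 of MM1R and WA passage 22 of MM1S, and below them in UT passage 7 of MM1R and WA passage 16 of MM1S.

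MM1R and MM1S were compared next, to see whether the GC-resistant line differs in these genes, with a difference counted where the adjusted p was under 0.01 and the log2 fold change exceeded 1 in size. In UT cultures none of the 42 genes passed by edgeR or by DESeq2, against 2.97% of all genes by edgeR (1.48% higher and 1.49% lower). An unadjusted p under 0.05 was found for 8 of the 42 (19%) and for 25.9% of all genes. At an adjusted p of 0.05 without a fold limit 2 passed, both lower in MM1R, against 11.9% of all genes (6.44% higher and 5.5% lower). AURKB, the kinase of the chromosomal passenger complex, was at 63.5, 74.0 and 85.6 CPM in UT cultures of MM1R and 97.7, 125 and 125 in those of MM1S (log2 fold change -0.64 ± 0.17 (SE), adjusted p = 0.028, by edgeR). CENPE was at 64.9, 68.7 and 52.6 CPM against 88.3, 95.1 and 102 (-0.61 ± 0.18 (SE), adjusted p = 0.045, by edgeR). For both genes every MM1R culture was below every MM1S culture. KIF20A, a kinesin of the central spindle, came next by p, at 51.6, 61.6 and 71.0 CPM against 66.4, 92.2 and 95.0 (-0.46 ± 0.18 (SE), adjusted p = 0.12, by edgeR), and its groups overlapped.

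The median log2 difference between the untreated lines was -0.28 over the 42 genes, 38 of which were lower in MM1R. Over all genes the median was 0.01, and 49.3% were lower in MM1R. The median of the 42 was -0.18 without passage 4 of MM1R and -0.15 without passage 23 of MM1S. UT cultures of the lines did not overlap for 7 genes, all lower in MM1R (15.7% of all genes were lower and 16.6% higher without overlap), namely AURKB, TOP2A, CENPE, CENPF, ECT2, ANLN and ASPM. The differences correlated with transcript length at -0.58 over the 42 genes and -0.24 over all genes, and this was not tested further. With WA none of the 42 passed these limits by edgeR or DESeq2 (3.04% of all genes did by edgeR, 1.63% higher and 1.41% lower). The unadjusted p was under 0.05 for 14 of the 42 (33.3%) and for 28% of all genes. At an adjusted p of 0.05, AURKB and CENPE were again lower in MM1R (-0.68, adjusted p = 0.021, and -0.61, adjusted p = 0.047, by edgeR), against 12% of all genes (6.34% higher and 5.66% lower). With WA, AURKB was at 51.6, 61.5 and 77.6 CPM in MM1R and 85.0, 101 and 120.5 in MM1S. CENPE was at 46.9, 72.0 and 67.4 CPM in MM1R and 69.9, 113 and 101 in MM1S with WA. KIF20A was at 46.5, 57.9 and 37.5 CPM in MM1R and 63.6, 82.7 and 66.0 in MM1S with WA. The WA cultures of the lines did not overlap for AURKB, KIF20A and CENPA, all lower in MM1R (14.4% of all genes were lower and 14.8% higher without overlap). The median of the 42 was -0.33, with 41 of 42 lower (51% of all genes were lower), and became -0.21 without passage 4 of MM1R and -0.50 without passage 16 of MM1S. Neither call of AURKB and CENPE at 0.05 held with every culture left out in turn, the adjusted p reaching 0.11 and 0.16 in UT and 0.10 and 0.21 in WA cultures.

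Whether the lines differed in their response to WA was tested as an interaction. None of the 42 genes passed an adjusted p of 0.05 by edgeR with or without the block or by DESeq2, and 0% of the 14085 genes passed by edgeR. Without the block, 97 genes (0.689%) and 0 of the 42 had an unadjusted p under 0.05. This is a smaller share than such a threshold passes where no gene differs, and why was not tested. In that fit the smallest p-values among the 42 were those of CENPA, CDCA3 and PTTG1. Their WA effects in MM1R minus those in MM1S were -0.25, -0.24 and -0.20 on the log2 scale (adjusted p = 1 each by edgeR). With the block, CDCA3 and KIF2C had the smallest (unadjusted p = 0.066 and 0.073 by edgeR). CENPA was at 20.7, 27.1 and 30.9 CPM in UT and 18.4, 22.5 and 21.4 in WA cultures of MM1R, and in MM1S at 22.6, 28.7 and 28.8 in UT and 22.6, 23.2 and 29.5 in WA cultures. CDCA3 was at 60.8, 72.7 and 88.2 CPM in UT and 50.2, 59.7 and 73.3 in WA cultures of MM1R, and in MM1S at 62.6, 70.8 and 79.5 in UT and 58.7, 66.1 and 83.0 in WA cultures. PTTG1 was at 91.0, 113 and 156 CPM in UT and 88.4, 109 and 118 in WA cultures of MM1R, and in MM1S at 110.1, 98.9 and 110.3 in UT and 106, 108 and 108 in WA cultures. For each of these genes the UT and WA cultures overlapped in both lines. The larger number of genes that passed with the block in MM1R than in MM1S is therefore no test of a difference between the lines.

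Other genes of the same pathways were counted by lists. For comparison with each list, 6.46% of all genes tested fell and 7.55% rose in MM1R without the block. In MM1S 4.23% fell and 6.25% rose. With the block 14.4% of all genes fell and 14.7% rose in MM1R, and 11.7% fell and 12.5% rose in MM1S. Among 38 tested genes of a further list of mitosis genes, 5 fell in MM1R and 3 in MM1S with WA, and none rose. ESPL1, the protease separase that cleaves cohesin, was at 120.3, 125 and 148 CPM in UT and 63.4, 74.8 and 67.1 in WA cultures of MM1R and fell in both lines (log2 fold change -0.93 and -0.79, adjusted p = 0.0042 and 0.013 by edgeR). CCNF, cyclin F, fell in both lines as well (-0.73 and -0.60), and FBXO5 (EMI1, an inhibitor of the anaphase-promoting complex) and the condensin gene NCAPH fell in MM1R (-0.92 and -0.67). The list's median was -0.26 in MM1R and -0.17 in MM1S. Of the 16 subunits and activators of the anaphase-promoting complex, 3 fell and 1 rose in MM1R, and 2 fell and 1 rose in MM1S. FZR1 (CDH1), the activator of the complex in late mitosis and G1, fell by 0.63 and 0.49 on the log2 scale, ANAPC4 fell in MM1R (-0.53) and ANAPC2 in MM1S (-0.37), and ANAPC16 rose in both (0.32 and 0.41). With the block 6 fell and 1 rose in MM1R, and 5 fell and 1 rose in MM1S.

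Of the 20 MuvB, MYB, FOXM1 and E2F regulators, 5 fell and 1 rose in MM1R, and 4 fell and 1 rose in MM1S. E2F4, the E2F of the DREAM complex, was at 137, 147 and 163 CPM in UT and 91.7, 83.2 and 84.9 in WA cultures of MM1R and fell in both lines (-0.78 and -0.54, adjusted p = 0.00026 and 0.0038 by edgeR). E2F5, its close relative, fell most (-1.37 and -1.54), from 10.3, 7.13 and 7.17 CPM in UT to 3.79, 3.09 and 2.62 in WA cultures of MM1R. The repressor E2F8 (-1.17 in MM1R) and RB1, the retinoblastoma protein (-0.91 and -0.67), also fell in both lines. The gene of this list that rose was LIN54, in both lines (0.46 and 0.47, adjusted p = 0.041 and 0.040 by edgeR). The list's median was -0.08 in MM1R and 0.03 in MM1S.

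Of 21 tested genes that brake or check the passage from G2 to mitosis, 3 rose in MM1R and 4 in MM1S, and none fell without the block. With the block 5 rose and 6 fell in MM1R, and 5 rose and 2 fell in MM1S. CDKN1A was at 218, 287 and 339 CPM in UT and 474, 685 and 1327 in WA cultures of MM1R. UT cultures of MM1S had 42.4, 115 and 104 CPM and WA cultures 182, 219.9 and 520.5. WA and UT cultures did not overlap in either line, and CDKN1A rose on the log2 scale by 1.56 ± 0.45 (SE), adjusted p = 0.033, in MM1R and 1.82 ± 0.45 (SE), adjusted p = 0.022, in MM1S by edgeR. GADD45G, a stress-induced inhibitor of CDK1, had 13 to 77 reads per culture and rose in both lines (1.71 and 1.39), CDC14A, a phosphatase that opposes CDK1, rose in both lines (1.26 and 1.02), and GADD45A rose in MM1S (1.06). CDC14B was lower in MM1R than in MM1S with WA (-1.77, adjusted p = 0.0077 by edgeR), at 5 to 36 reads per culture.

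Of 43 G1/S and DNA replication genes, 12 fell and 1 rose in MM1R, and 6 fell and 1 rose in MM1S. The medians of this list, -0.37 and -0.28, were further below 0 than those of the 42 G2/M and mitosis genes in both lines, and in the 6 pairs its median lay between -0.21 and -0.41. CCNE1, cyclin E1, was at 42.8, 50.5 and 54.0 CPM in UT and 22.6, 24.4 and 11.7 in WA cultures of MM1R and fell in both lines (-1.32 and -0.98, adjusted p = 0.006 and 0.032 by edgeR). CCNE2 fell in MM1R (-1.15) and was lower there than in MM1S with WA (-1.61), at 11 to 88 reads per culture. UHRF1, which keeps DNA methylation through replication, fell by 0.96 and 0.67, and CDC7, the kinase that fires replication origins, by 0.71 and 0.88 on the log2 scale. With the block, 29 of the 43 fell and 2 rose in MM1R and 22 fell and 2 rose in MM1S. In the same fit 16 fell and 2 rose of the further mitosis genes in MM1R, and 13 fell and 2 rose in MM1S.

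The 11 markers of other cell types summed to 28.6 to 46.9 CPM per culture, 7 of them had more than 3 reads in some culture, COL1A2 had 0 reads and CD3D, KRT8 and LYZ at most 2. PECAM1 had 187 to 497 reads per culture, CD3E 63 to 211, HBB 63 to 178 and COL1A1 9 to 294. COL1A1, a fibrillar collagen gene, rose with WA in both lines (log2 fold change 2.46 and 2.78, adjusted p = 0.0039 and 0.0045 by edgeR), and with the block PECAM1, an adhesion molecule of endothelial cells, fell in both (-0.31 and -0.34). The other 3 genes of the list that were tested did not pass. The plasma cell list summed to 6340 to 6730 CPM in UT and 4930 to 5830 in WA cultures of MM1R, and to 5860 to 6180 and 5050 to 5370 in those of MM1S. Its sum was lower with WA in both lines, but its 9 genes did not all move the same way. In each line 7 had a log2 fold change below 0, and 1 fell and 1 rose past the threshold. IRF4 fell in both lines (-0.96 and -0.73, adjusted p = 0.0032 and 0.019 by edgeR). SLAMF7 rose in both (0.40 and 0.53, adjusted p = 0.026 and 0.0069 by edgeR). The part of these marker changes in the values above was not tested.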

How the data were processed

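Total RNA of 12 cultures was sequenced, and groups and passage numbers were taken from the sample labels. The authors assessed reads with FastQC 0.11.5, mapped them to hg19 with STAR 2.7.3a and deposited the raw count of reads per gene in each culture, without normalization, which is the unit used here. The annotation behind the counts and the strand setting are not given in the sources used here. A further deposited table of normalized values was not used. With R 4.3.3 and edgeR 4.0.16, 14085 genes were kept by filterByExpr (minimum count 10) over the 4 groups, libraries were scaled by TMM, and 1 quasi-likelihood fit of all 12 libraries was tested with Benjamini-Hochberg adjustment over all genes. WA effects and the interaction were called at an adjusted p of 0.05, and the lines were compared at 0.01 with a log2 fold change of 1 in size. Differences within a passage pair are on the log2(CPM + 0.5) scale and understate changes of low genes. Deviations of the UT and WA cultures from their group means correlated over genes at 0.43, 0.22 and 0.25 for passages 4, 6 and 7 of MM1R and at 0.74, 0.26 and 0.49 for passages 16, 22 and 23 of MM1S. Against WA cultures of other passages the highest value was -0.20, -0.09 and 0.11 in MM1R and -0.47, 0.35 and 0.42 in MM1S. The UT culture of passage 22 thus correlated more with another passage than with its own. Deviations within a group sum to 0, so that a positive correlation within a passage lowers those with other passages. Since the labels give the shared passage and all 6 correlations within a passage exceeded 0.1, a paired fit with passage as a block is given beside the results. The main fit, from which the counts called as reported come, did not use the block. Values of the other lists and of the genes named for the interaction are also from the main fit unless the block is named. Molecular identifiers are not mentioned in the sources used here. Counting error is not the whole error, since cultures of a group differed by more than counting alone gives (chi-square per degree of freedom 8.06 to 44.3).

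Values in every culture were printed for CDK1, CCNB1, PLK1, AURKA, TOP2A and MKI67, for genes past the threshold in a comparison and, where none passed, for the 3 with the smallest p. Other lists of the same pathways were named by at most 4 members past the threshold for WA. INCENP, LIN54, and CDC14B from the comparison of the lines, were named in addition. ECT2, CKS2, CDC25B, CDC25C, NUF2 and CDC20 are given by culture in addition, chosen after their values were seen. The genes and lists were chosen with earlier results of these data known. Transcript lengths and GRCh37 coordinates come from GENCODE, and promoter sequences from RefSeq (GRCh38.p14). The script was tested on simulated data. Alternatives were DESeq2 1.42.0 and its size factors, no filter on low counts, only the libraries compared, other thresholds, the passage block, and each library left out in turn. The block with each pair left out and DESeq2 with the block were added after seeing the data.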

Additional observations from a re-analysis of the deposited data

How the results depend on the processing

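Without a filter on low counts 11 of the 42 genes passed for WA in MM1R and 7 in MM1S, against 3 and 2 as reported, and DESeq2 called 5 in MM1R. At an adjusted p of 0.01 the count was 1 in each line. At an adjusted p of 0.05 with no fold limit 2 genes passed between the lines in UT and 2 in WA cultures, where 0 passed as reported. With passage as a replicate block 22 passed in MM1R and 11 in MM1S, and with DESeq2 and the block 21 and 11. With the block and without passage 4, 6 or 7 the count in MM1R was 14, 14 and 11, and without passage 16, 22 or 23 in MM1S it was 6, 10 and 6. Leaving out single libraries gave 1 to 6 genes in MM1R, 1 to 3 in MM1S, 0 to 0 between the lines and 0 to 0 for the interaction. For the interaction the block changed no call. No paired analysis was possible for the lines because they share no passage number. The fit without the filter gave far smaller adjusted p-values for ANLN at nearly equal fold changes. The share of all genes passing was counted only for the main fit, the block and the line threshold of 0.05. For the other settings, a move of these counts cannot be told apart from a move over all genes. Why these counts moved was not tested.

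Leaving out single libraries turned the sign of values that passed no test. The log2 difference between the untreated lines ranged from -0.25 to 0.053 for PLK1 and from -0.22 to 0.036 for AURKA, and with WA from -0.42 to 0.0049 for MKI67. The WA effect on MKI67 in MM1S ranged from -0.19 to 0.24, and with the block it was 0.11 without passage 16. The interaction ranged from -0.27 to 0.045 for CDK1, from -0.37 to 0.059 for CCNB1, from -0.18 to 0.071 for AURKA, from -0.21 to 0.12 for TOP2A, from -0.13 to 0.29 for MKI67 and from -0.36 to 0.035 for PTTG1. ANLN passed in all alternatives in both lines. Under all alternatives together 1073 values of single genes kept direction and side of the threshold, 131 newly passed, 15 no longer passed and 20 turned sign. There were 3 cultures per group, and the median SD of these genes within groups was 0.24 to 0.30 (log2). The smallest change that the fit without the block could detect was not worked out.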
